A study of Mus musculus with 4 samples.

Results

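Lymphatic endothelial cells line the vessels that drain fluid and leukocytes from skeletal muscle. Here they were selected from 4 single-cell libraries of mouse hindlimb muscle by what each cell expressed. A cell was kept as a member if it held UMIs (unique transcript tags) of at least 3 of the 6 genes Mmrn1, Prox1, Lyve1, Flt4, Reln and Ccl21a and of at least 1 of the 3 endothelial genes Pecam1, Cdh5 and Egfl7. The rule found 194 members among 18153 cells with more than 200 detected genes and under 10% mitochondrial UMIs. The GFP- libraries held 23 of them in WT and 147 in Sod1KO, and the GFP+ libraries 7 in WT and 17 in Sod1KO.

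The donors were male mice aged 2 months, all carrying S100GFP-tg, in which the S100B promoter drives GFP and Schwann cells fluoresce. The WT pool held S100GFPtg mice with intact Sod1, and the Sod1KO pool held S100GFPtg Sod1-/- mice, which lack the superoxide dismutase SOD1 in every tissue. For each genotype, tibialis anterior and gastrocnemius muscles of 4 mice were pooled, digested and sorted into live (PI-) GFP+ and GFP- cells, and each sorted fraction gave 1 library. With 1 library per group there was no replicate and no test across animals. Intervals below are exact 95% intervals, except Newcombe 95% intervals for differences of shares, and all cover counting error only. A difference between libraries cannot be told apart from a difference between pools or preparations. In each comparison across genes, called means 2-fold or more on the ratio of CPM (UMIs of a gene per 1000000 UMIs summed over the cells of a class).

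Lymphatic endothelium is specified from veins by the transcription factor PROX1, which acts with SOX18 and NR2F2 (COUP-TFII). Its growth is driven by VEGF-C through the receptor VEGFR3, encoded by Flt4, with neuropilin 2 as coreceptor. Initial lymphatics, the blind-ended capillaries that take up fluid, are known for the hyaluronan receptor LYVE1 and for CCL21, the chemokine that draws dendritic cells into the vessel. Collecting vessels downstream carry little of these proteins and have valves that depend on FOXC2, GATA2, NFATC1 and integrin alpha 9.

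On GRCm38.p6, the assembly of the mm10 build named in the submitters' processing notes, RefSeq places Prox1 at chr1:190118035-190170827, Mmrn1 (the secreted glycoprotein multimerin 1) at chr6:60944317-60989378 and Lyve1 at chr7:110850607-110862953. Flt4 lies at chr11:49609679-49652739, Reln (the matrix glycoprotein reelin) at chr5:21884454-22344705 and Ccl21a at chr4:42772860-42773991. RefSeq promoter windows of 300 bases, reaching from upstream of the transcription start to 50 bases after it, were matched for 5 of the 6 genes. They are shown for Prox1, which defines the lineage, for Mmrn1, which had 0 UMIs in the blood endothelial cells of WT GFP-, and for Ccl21a, whose CPM spread widely from cell to cell. Each is written 5′ to 3′ on the gene's strand, and capitals mark the SOX motif AACAAT.

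Prox1, chr1:190170778-190171077, minus strand: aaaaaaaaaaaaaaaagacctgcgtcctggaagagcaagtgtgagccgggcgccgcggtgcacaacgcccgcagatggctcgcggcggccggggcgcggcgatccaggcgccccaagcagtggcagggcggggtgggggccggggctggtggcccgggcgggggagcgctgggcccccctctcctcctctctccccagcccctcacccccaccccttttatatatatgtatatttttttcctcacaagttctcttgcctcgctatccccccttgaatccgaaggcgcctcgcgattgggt
Mmrn1, chr6:60944067-60944366, plus strand: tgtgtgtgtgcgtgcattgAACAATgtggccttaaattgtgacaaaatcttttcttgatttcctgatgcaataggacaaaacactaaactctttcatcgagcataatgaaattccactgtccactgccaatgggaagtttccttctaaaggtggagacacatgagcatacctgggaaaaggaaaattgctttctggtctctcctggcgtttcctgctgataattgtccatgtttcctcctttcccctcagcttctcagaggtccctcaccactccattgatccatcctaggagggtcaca
Ccl21a, chr4:42773942-42774241, minus strand: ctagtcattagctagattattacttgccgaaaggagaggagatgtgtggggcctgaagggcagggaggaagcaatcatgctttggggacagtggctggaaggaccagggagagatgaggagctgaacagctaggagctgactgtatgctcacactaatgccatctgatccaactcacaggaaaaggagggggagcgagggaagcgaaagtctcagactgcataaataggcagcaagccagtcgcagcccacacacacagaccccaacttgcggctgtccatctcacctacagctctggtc

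The letters AACAAT were searched on both strands, as was AGGTCA, the half-site of nuclear receptors such as NR2F2. AACAAT occurred in 10.7% and AGGTCA in 16.3% of 32851 RefSeq promoter windows of the same length. Of the 6 windows of the matched rule genes, 1 held AACAAT (Mmrn1, at base 20 from the window's 5′ end) and 0 held AGGTCA. Of the 19 windows of 13 matched genes among the 15 highest against blood endothelial cells (named below), 3 held AACAAT, those of Sh3gl3, Gpm6a and Plce1, and 2 held AGGTCA, those of Ston2 and Col23a1. These matches describe the windows only.

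The rule joined cells with high and with very low lymphatic content. All 6 rule genes were detected in 103 members, 5 in 26, 4 in 14 and exactly 3 in 51. The summed UMIs of Mmrn1, Prox1, Lyve1, Flt4 and Reln per 10000 UMIs of the cell ran from 0.352 to 163.5. Members at 5 per 10000 or more are called strong members below, and the rest weak members. This limit was set after the values were seen, and 8 members lay between 4 and 8 per 10000. The 152 strong members had a median of 63.1 (19 cells from WT and 117 from Sod1KO in the GFP- sort, 5 and 11 in the GFP+ sort), and the 42 weak members a median of 1.27 (4 and 30 cells in the GFP- sort, 2 and 6 in the GFP+ sort).

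Weak members were deep cells, with a median of 32392 UMIs against 15412 in strong members, and they held 29.4% of the members' UMIs in Sod1KO GFP- and 18.1% in WT GFP-. The mural list (9 genes of pericytes and smooth muscle, among them Rgs5 and Notch3) summed to 10468.2 CPM in the weak members of WT GFP- and 9511.5 CPM in those of Sod1KO GFP-, against 1367.2 and 2025.7 CPM in the strong members. The blood endothelial list (18 genes) summed to 8635.6 and 7464.0 CPM in weak members and to 1857.0 and 2125.3 CPM in strong members. At the edge of the rule, members with exactly 3 rule genes had a median of 1.46 per 10000, and the 496 cells with 2 rule genes and an endothelial gene had a median of 1.31. Whether weak members are lymphatic cells, doublets or cells holding free RNA was not tested, so values of strong members are given beside those of all members.

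**Figure D1:**
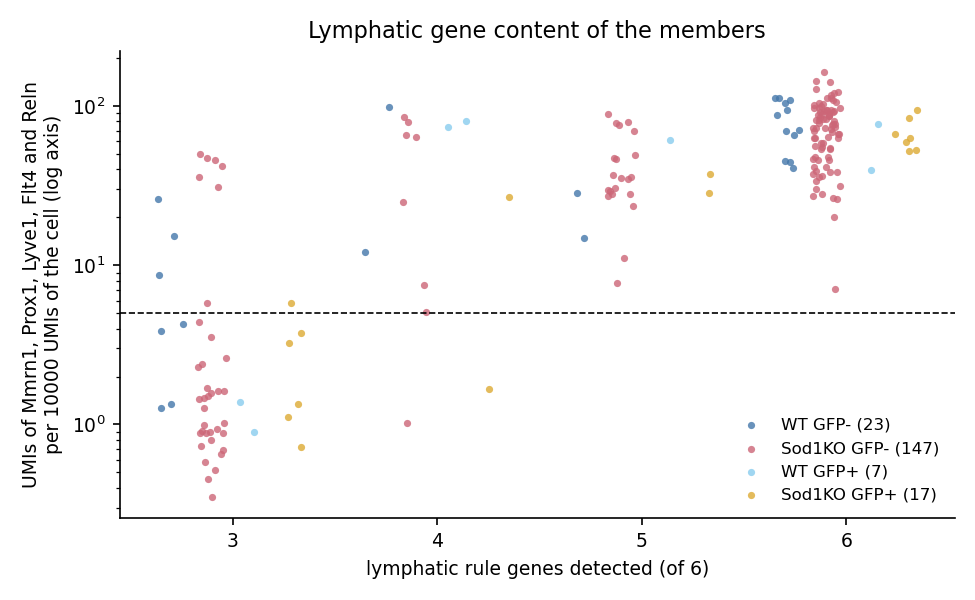
Each point is a member (194), placed by the number of the 6 lymphatic rule genes detected (x axis) and by the summed UMIs of the 5 rule genes other than Ccl21a per 10000 UMIs (y axis, log scale). The dashed line is at 5 per 10000, and all 103 members with 6 genes and 26 with 5 genes lie above it, while 40 of the 51 with 3 genes lie below.

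The median depth of members in the GFP- sort was 9104 UMIs for WT and 20275 for Sod1KO, and in the GFP+ sort 12793 for WT and 25253 for Sod1KO, against 8275 to 15273 for all cells of these libraries, so members were shallowest in WT GFP-. Of 21373 distinct barcodes, 42 occurred in more than 1 library, and 0 of these belonged to members. Doublet scores marked 0 members of WT and 6 of Sod1KO as doublets in the GFP- sort, and 1 and 4 in the GFP+ sort. More members carried at least 2 markers of macrophages, mural cells or Schwann cells. The GFP- sort held 13 such cells among its 23 WT members and 70 among its 147 Sod1KO members. The GFP+ sort held 4 among 7 WT members and 10 among 17 Sod1KO members. In strong members of the GFP- libraries the macrophage list (11 genes) summed to 27.7 and 19.4 CPM. Its defining genes were therefore near 0. Sod1 itself was read by a 3′ tag at 99.8 CPM in WT GFP- members (44 UMIs) and 93.3 in Sod1KO GFP- (313 UMIs), and in the GFP+ sort at 113.9 for WT (14 UMIs) and 112.5 for Sod1KO (53 UMIs). The log2 ratio of Sod1KO over WT was -0.10 (-0.56 to 0.39) in GFP- members, so the Sod1 tag did not tell the genotypes apart, and Sod1KO below means the library labelled so.

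Members made up 1.38% of the cells of WT GFP- (23 of 1665, interval 0.878 to 2.07%) and 2.71% of Sod1KO GFP- (147 of 5430, 2.29 to 3.17%). The difference was 1.33 percentage points (0.535 to 1.98). Taken as a share of endothelial cells, which leaves other cell types out of the denominator, members were 6.28% in WT GFP- (23 of 366) and 10.6% in Sod1KO GFP- (147 of 1384), 4.34 points apart (1.00 to 7.03). In the GFP+ sort members were rare, at 0.147% (7 of 4767) and 0.270% (17 of 6291) of cells. The GFP+ shares were 0.123 points apart, with an interval that included 0 (-0.0627 to 0.302), as did the difference of 3.13 points in the share of endothelial cells (-0.115 to 6.54).

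Depth moves this share, because the rule counts detected genes. With each cell thinned to 2000 UMIs, the GFP- shares were 0.960% in WT and 1.69% in Sod1KO, and the difference was 0.729 points (0.00967 to 1.28). Strong members alone were 1.14% and 2.15% of GFP- cells, a difference of 1.01 points (0.287 to 1.60). Endothelial cells here are members plus blood endothelial cells, which had all 3 endothelial genes, at most 1 lymphatic rule gene and at most 1 of the mural genes Rgs5, Kcnj8, Abcc9 and Notch3. The blood endothelial class held 343 cells of WT and 1237 of Sod1KO in the GFP- sort, and 280 and 288 in the GFP+ sort.

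**Figure D2:**
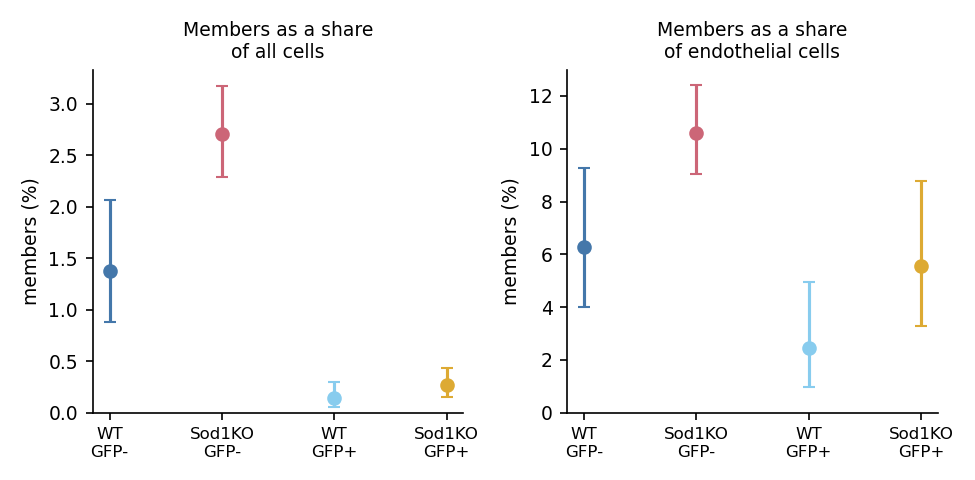
Members as a percentage of all cells (left) and of endothelial cells (right) in each of the 4 libraries, with exact 95% intervals for counting error as bars. The Sod1KO GFP- point lies at 2.71% of cells and the WT GFP- point at 1.38%, and both GFP+ points lie at or below 0.270%.

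The genes that chose the members are given as a description. In strong members Mmrn1 stood at 1987.1 CPM for WT and 1626.5 for Sod1KO in the GFP- sort and at 1279.5 and 1520.9 CPM in the GFP+ sort, and Prox1 at 1206.7, 1049.1, 1301.2 and 979.8 CPM. Flt4 stood at 622.7, 581.6, 563.8 and 680.5 CPM and Reln at 2020.3, 1782.4, 1843.3 and 1217.6 CPM in the same order. Each of these 4 genes stayed within 2-fold across the libraries, GFP+ included. Lyve1 stood at 1746.3, 1028.9, 1149.4 and 1106.9 CPM and Ccl21a at 17897.8, 9803.9, 24462.2 and 12097.8 CPM, and Ccl21a was higher in the WT library of each sort. The GFP+ value rests on 1 WT cell, which held 71.7% of the Ccl21a UMIs of the 5 strong members, and the medians over GFP+ cells ran the other way, at 291.4 CPM for WT and 8698.6 CPM for Sod1KO. For Lyve1 this held in the GFP- sort only, since the GFP+ log2 ratio of Sod1KO over WT was -0.05 (-0.48 to 0.40). Ccl21a has near-identical copies in the genome, between which its reads can be split, and its counts are uncertain in that respect.

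The rule genes were not equally confined to members. In the GFP- libraries members held 94.2% (WT) and 98.1% (Sod1KO) of all Mmrn1 UMIs and 96.1% and 98.6% of Ccl21a UMIs, but 52.3% and 64.9% of Lyve1 and 29.1% and 43.5% of Flt4 UMIs. Lyve1 was also read in macrophage-marked cells, at 702.9 CPM in Sod1KO GFP-, and Flt4 in blood endothelial cells at 38.6 CPM in WT GFP- and 35.8 CPM in Sod1KO GFP-. Reln UMIs of the GFP+ libraries lay almost wholly outside members, which held 0.839% of them in WT GFP+ and 2.28% in Sod1KO GFP+. As a measure of free RNA, Ccl21a had a UMI in 0.292% of blood endothelial cells of WT GFP- and 1.94% of those of Sod1KO GFP-, at median depths of 8799 and 10858 UMIs, against 84.2% and 94.0% of strong members, whose medians were 9104 and 16791 UMIs. After thinning to 2000 UMIs these shares were 0% and 0.586% in blood endothelial cells and 73.7% and 83.0% in strong members. The blood endothelial class allows at most 1 lymphatic rule gene, so cells with Ccl21a and another rule gene were left out of it. Its Ccl21a shares can therefore lie below the level of free RNA.

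Lymphatic genes that the rule did not use carried the label of the cells. Of 24 such genes on a list, 18 passed the filter on low values (10 UMIs expected in the members of each GFP- library), and 14 of these were called higher and 0 lower in members than in blood endothelial cells of both GFP- libraries. Over all 6013 genes that passed, 6.55% were called higher and 6.39% lower. The median log2 ratio of the 18 genes was 3.46, against -0.08 for all genes. Because the rule selects on the same contrast, these counts describe the members and are no test. With strong members, 426 of 5370 genes (7.93%) were called higher and 585 (10.9%) lower, and 318 and 356 of them were also called with all members.

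Podoplanin (Pdpn), the mucin-type protein named for its use as a lymphatic marker, stood at 351.5 CPM in WT GFP- strong members and 250.0 CPM in Sod1KO GFP-, against 2.58 and 8.77 CPM in blood endothelial cells, log2 ratios of 7.09 (6.17 to 8.19) and 4.83 (4.57 to 5.11). Maf, a transcription factor induced by VEGF-C in lymphatic endothelium, stood at 1101.5 and 736.2 CPM against 9.27 and 6.65 CPM. Tbx1, a T-box factor needed for lymphatic growth, stood at 193.7 and 144.4 CPM, with 0 UMIs in WT blood endothelial cells and 0.684 CPM in Sod1KO, a log2 ratio of at least 7.97 in WT (floor of 3 UMIs over the class) and of 7.72 in Sod1KO. Nr2f2, the venous and lymphatic fate regulator, stood at 1015.7 and 535.6 CPM against 79.6 and 82.9 CPM. Neither Sox18 nor Gata2 was higher in strong members: Sox18 had log2 ratios of -0.38 (-0.72 to -0.06) and -0.57 (-0.71 to -0.43), and Gata2 of -1.18 (-1.95 to -0.50) and -0.09 (-0.33 to 0.15). Of the list of 21 lymphatic transcription factors, 17 passed, 4 were called higher (Nr2f2, Nfatc1, Maf and Tal1) and 1 lower (Sox17), while Tbx1 and Foxc2 had too few UMIs to pass. The other genes of the lymphatic list called higher were Itga9, Thy1, Fgl2, Nts, Stab1, Sema3d, Klhl4, Lbp, Timp3, Pard6g and Cp, and Nrp2 and Cd9 passed without a call in all members. In strong members both were called too, which made 16 of 18.

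Veins, from which lymphatic endothelium arises, were the closest blood vessels to compare. Blood endothelial cells with venous markers numbered 10 in WT GFP- and 68 in Sod1KO GFP-. Nr2f2 stood at 293.4 and 413.7 CPM in them, against 73.4 and 63.5 CPM in capillary-marked cells (261 and 920 cells) and 43.0 and 4.46 CPM in arterial-marked cells (31 and 125 cells). Prox1 had 0 UMIs in the venous cells of WT and 5.26 CPM in those of Sod1KO, and Mmrn1 and Reln had 0 UMIs there in both libraries. As blood endothelial cells, the venous cells were chosen with at most 1 lymphatic rule gene. Low values of Prox1, Mmrn1 and Reln in them are thus partly set by that choice. Fgl2 stood at 261.9 and 164.2 CPM in venous and at 2.20 and 9.51 CPM in capillary cells, against 1001.9 and 867.1 CPM in strong members. Maf, Stab1 and Lyve1 were also read in macrophage-marked cells, where Maf stood at 2566.1 and 1181.0 CPM and Stab1 at 615.9 and 550.8 CPM. Fibroblast-marked cells of the GFP- sort carried Pdpn too, in 19 of 28 WT cells and 398 of 549 Sod1KO cells. Strong members there held it in 13 of 19 and 91 of 117 cells. After thinning to 2000 UMIs, 14.3% and 27.0% of fibroblast-marked cells had it, beside 42.1% and 31.2% of strong members. How much fibroblast RNA added to Pdpn in members was not tested.

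Receptors and ligands of the VEGF-C pathway divided. The coreceptor Nrp2 stood at 542.4 and 606.5 CPM in strong members of WT and Sod1KO GFP-, against 214.1 and 290.9 CPM in blood endothelial cells. Kdr, encoding VEGFR2, was read in both cell types, with log2 ratios of -0.87 (-1.09 to -0.66) and -0.68 (-0.78 to -0.59). Flt1, encoding VEGFR1, stood at 47.0 and 244.5 CPM against 1930.4 and 1889.8 CPM, log2 ratios of -5.36 (-6.14 to -4.68) and -2.95 (-3.07 to -2.83). The ligand Vegfc itself had 0 UMIs in WT GFP- strong members and 17.7 CPM in Sod1KO GFP-, against 92.0 and 108.4 CPM in blood endothelial cells and 534.9 and 483.8 CPM in the arterial-marked ones. Of the 11 genes on this list 5 passed, with 3 called lower (Flt1, Nrp1 and Vegfc) and 0 higher in all members, and 3 lower and 1 higher (Nrp2) in strong members. Among 6 Tie and angiopoietin genes 4 passed, and Angpt2, a ligand of the TIE2 receptor required for lymphatic development, was called higher, at 130.1 and 133.0 CPM in strong members against 40.4 and 28.4 CPM.

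Valve and collecting-vessel genes were read in members. Of 16 listed, 10 passed, 3 were called higher (Itga9, Nfatc1 and Fn1) and 1 lower (Bmp4). Itga9, the integrin alpha 9 of valve leaflets, stood at 437.3 and 540.2 CPM in strong members of WT and Sod1KO GFP- (log2 ratios of 4.71 and 3.85), and Nfatc1 at 235.2 and 422.4 CPM (2.43 and 2.78). Foxp2, Cldn11 and Foxc2 had too few UMIs to pass the filter. Foxp2 stood at 191.0 and 166.8 CPM with UMIs in 7 of 19 and 49 of 117 strong members, the tight-junction gene Cldn11 at 66.4 and 96.7 CPM in 3 and 32 cells, and Foxc2 at 55.4 and 41.8 CPM in 7 and 40 cells. In blood endothelial cells these 3 genes lay at 6.4 CPM or below. They were thus read in a minority of strong members in each GFP- library.

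Of 16 guidance genes 10 passed, with 2 called higher and 3 lower (Plxnd1, Nrp1 and Robo4). The higher were semaphorins: Sema3d, a secreted semaphorin, stood at 384.7 and 440.9 CPM in strong members against 2.32 and 4.91 CPM in blood endothelial cells, and Sema3a at 196.5 and 247.5 CPM against 9.27 and 22.9 CPM. Il7, the lymphocyte survival cytokine, stood at 149.4 and 80.7 CPM against 0.258 and 0.435 CPM, log2 ratios of 9.18 (6.64 to 14.51) and 7.53 (6.46 to 8.87). Il7 did not pass the filter, nor did Ackr2. Ackr2, a scavenger receptor of inflammatory chemokines, stood at 69.2 and 69.3 CPM against 1.03 and 0.311 CPM. Of the 26 trafficking genes 9 passed, and 4 of these were called lower (Cxcl12, Cxcl9, Vcam1 and Cd274) and 0 higher. Among 20 matrix genes, which all passed, 4 were called higher and 3 lower in members, and the protease inhibitors Timp3 (3033.2 and 2155.3 CPM against 1047.9 and 760.1) and Timp2 (835.8 and 625.9 against 68.5 and 136.3) and the laminin subunit Lama4 (606.1 and 547.0 against 170.3 and 211.2) were on the higher side with Fn1.

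By the rule for named genes, the 15 highest against blood endothelial cells outside the 9 rule genes were Sh3gl3, Apba2, Wdr17, Meis2, Pard6g, Maf, Gpm6a, Sema3d, Plce1, Tc2n, Ston2, Wipf3, Col23a1, Lcn2 and Fgl2. Sh3gl3, an endophilin of endocytosis, had log2 ratios in all members of 10.18 (WT) and 9.14 (Sod1KO). Apba2, an adaptor of the amyloid precursor protein, was at least 8.50 in WT (0 UMIs in blood endothelial cells, set to the floor of 3) and 10.66 in Sod1KO. Meis2, a homeobox factor, had 7.59 and 6.54, and the polarity gene Pard6g 6.31 and 8.58. Lcn2, an iron-siderophore binding lipocalin, had 7.25 and 5.12, and Fgl2, a fibrinogen-like protein, 6.55 and 5.12. Fgl2 was read in 16 of 19 strong members of WT GFP- and in 103 of 117 of Sod1KO GFP-, and Sh3gl3 in 15 and 91 of them.

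Genes of blood capillaries were low in members. Of 18 blood endothelial genes 16 passed and 12 were called lower, with a median log2 ratio of -2.09 in members and -3.85 in strong members. Ly6c1 stood at 58.1 and 137.3 CPM in strong members of WT and Sod1KO GFP- against 2463.2 and 1518.2 CPM, and the stem and capillary marker Cd34 at 8.3 and 60.8 CPM against 465.7 and 408.1 CPM. Fatty acid uptake genes of muscle capillaries followed: of 12 lipid-handling genes 11 passed and 7 were called lower, among them the lipid chaperone Fabp4 at 548.0 and 1098.1 CPM against 17674.4 and 15637.1 CPM and the fatty acid transporter Cd36 at 80.3 and 152.9 CPM against 2316.3 and 1663.6 CPM. In single strong members the median Fabp4 level was 43.7 CPM in WT GFP- and 53.5 CPM in Sod1KO GFP-, and the single highest cell held 30.8% and 26.6% of its UMIs. Of 16 junction genes 14 passed, with 3 called lower and 0 higher. Jam2 (16.6 and 28.3 CPM against 594.0 and 432.1) and Esam (30.4 and 73.9 against 622.1 and 509.9) were among the lower, while the tight-junction gene Cldn5 had log2 ratios of 0.33 (0.18 to 0.48) and 0.46 (0.41 to 0.52).

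Antigen presentation genes were low as a group. Of 16 interferon and MHC genes 14 passed, 12 were called lower and 0 higher, and their median log2 ratio was -1.63 in members and -2.59 in strong members. H2-K1, a classical MHC class I heavy chain, stood at 166.1 CPM in WT GFP- and 275.8 CPM in Sod1KO GFP- strong members, against 1014.7 and 1008.6 CPM in blood endothelial cells, and its light chain B2m at 368.1 and 406.7 CPM against 1651.5 and 1485.6 CPM. The MHC class II chaperone Cd74 had 0 UMIs in members of WT GFP- and 2 in those of Sod1KO GFP-. It was among the 10 lowest genes by the rule for named genes, with the chemokine Cxcl9, Fmo2, the apelin receptor Aplnr, the drug efflux pump Abcb1b, C1qtnf9, the capillary carbonic anhydrase Car4, the neurotrophin Ntf3, Pltp and Cytl1. Aplnr had log2 ratios of -3.29 and -2.90 in all members and of -5.81 (-11.11 to -3.32) and -4.34 (-5.09 to -3.67) in strong members. Among 16 immediate early and heat shock genes, which all passed, 0 were called in either direction in all members, as was the case for the 13 of 16 antioxidant genes that passed. With strong members, 1 of 16 immediate early and heat shock genes was called lower and 0 higher, and 0 of 12 antioxidant genes were called.

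**Figure D3:**
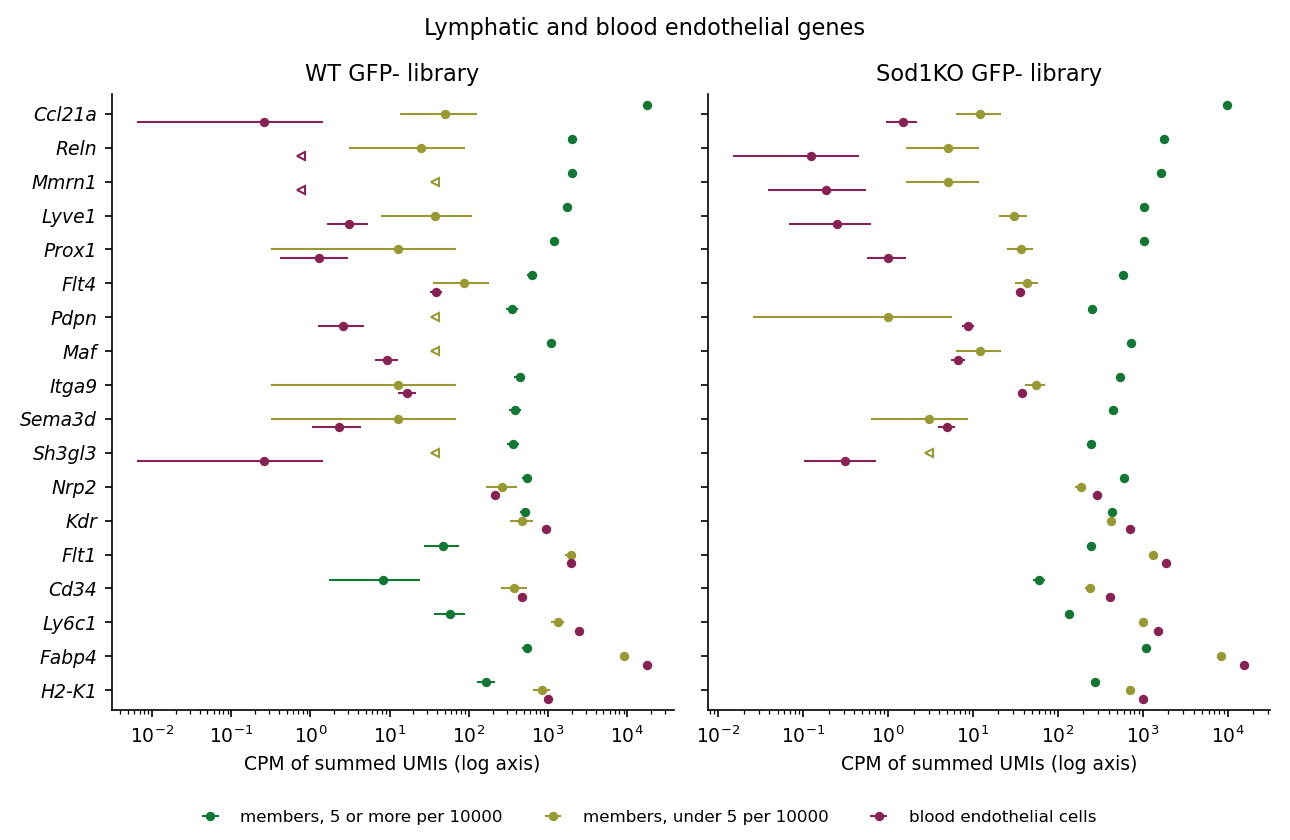
CPM of summed UMIs (log axis) for 18 genes in strong members, weak members and blood endothelial cells of the WT GFP- (left) and Sod1KO GFP- (right) libraries, with exact Poisson 95% intervals for counting error. Open triangles mark classes with 0 UMIs at the floor of 3 UMIs, and strong members lie right of blood endothelial cells for the genes from Ccl21a down to Nrp2 and left of them from Kdr to H2-K1.

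Strong members spread widely in Ccl21a and Lyve1. Per cell, Ccl21a ran from 0 to 49058.8 CPM in WT GFP- (median 4777.6) and from 0 to 46190.3 CPM in Sod1KO GFP- (median 6779.7), and Lyve1 from 0 to 5479.3 CPM (median 537.0) and from 0 to 5840.0 CPM (median 721.7). Cells were divided at 20 UMIs of Lyve1 plus Ccl21a per 10000, a limit chosen after the values were seen. It cuts a range and not a type, and 26 of the 152 strong members lay between 10 and 40. The low side held 45 cells, which were 9 of 19 in WT GFP- (47.4%, 24.4 to 71.1%), 29 of 117 in Sod1KO GFP- (24.8%, 17.3 to 33.6%), and, in the GFP+ sort, 3 of 5 for WT and 4 of 11 for Sod1KO. Low cells were shallower, with a median of 7369 UMIs against 19301.

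Within Sod1KO GFP-, the library with most cells, Lyve1 and Ccl21a were fixed low by this division. Mmrn1 stood at 404.6 CPM in low cells and 1936.9 CPM in high cells (log2 ratio -2.26, -2.48 to -2.05), and Flt4 at 177.3 and 684.3 CPM (-1.95, -2.28 to -1.63). Prox1 (748.7 and 1125.5 CPM, -0.59, -0.75 to -0.43) and Reln (1361.8 and 1889.2 CPM, -0.47, -0.59 to -0.35) lay under the 2-fold limit. Mmrn1, Flt4, Prox1 and Reln are, with Lyve1, the sum that chose strong members. A cell low in Lyve1 could be a strong member only through the others, so their levels in low cells are partly set by that choice. Of 22 lymphatic genes outside the rule that passed, 12 were called lower and 0 higher in low cells. Over all 6498 genes that passed, 4.02% were called lower and 6.31% higher.

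Markers of other cells moved with this division. In low cells 8 of 13 passing blood endothelial genes, 4 of 7 fibroblast genes, 4 of 5 tenocyte genes, 6 of 11 lipid-handling genes and 5 of 8 mural genes were called higher, and 1 fibroblast and 3 mural genes lower. The fibroblast collagen gene Col1a2 stood at 1793.4 CPM in low and 89.0 CPM in high cells.

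Much of this came from 5 low cells with under 8 UMIs of Mmrn1, Prox1, Lyve1, Flt4 and Reln per 10000, which held 39.7% of the UMIs of low cells. They also held 57.0% of the fibroblast and 84.1% of the tenocyte UMIs of all strong members of that library. Without them, a comparison chosen after the values were seen, 24 low cells were left, and Prox1 (log2 ratio 0.06, -0.11 to 0.23) and Reln (0.05, -0.08 to 0.18) had intervals that included 0. The 5 cells were taken out by a sum that includes Prox1 and Reln, and all were low cells. A rise of Prox1 and Reln in low cells was thus favoured by the choice. Mmrn1 (622.8 and 1936.9 CPM, -1.64, -1.86 to -1.42) and Flt4 (269.9 and 684.3 CPM, -1.34, -1.69 to -1.01) were still 2-fold or more lower in low cells. Over all 4710 genes that passed without the 5 cells, 183 were called higher and 228 lower. Of the 22 lymphatic genes outside the rule 4 were then called lower and 0 higher. Of the other lists 5 of 11 blood endothelial, 2 of 5 mural and 6 of 10 lipid-handling genes were called higher, 3 mural genes lower, and 4 of 5 fibroblast genes lower, the opposite direction. The part of other cell types in the division was not tested.

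Fgl2 stood at 173.1 CPM in low and 1043.4 CPM in high cells (log2 ratio -2.59, -2.93 to -2.27), with UMIs in 19 of 29 and 84 of 88 cells. The mannose receptor Mrc1 (29.2 and 138.2 CPM) and the scavenger receptor Stab1 (123.0 and 435.4 CPM) were lower in low cells too. Lcn2 was read in 3 of 29 low and 58 of 88 high cells, at 8.34 and 223.0 CPM. The atypical receptor gene Gpr182, chosen after its values were seen, was read in 1 low and 46 high cells, with 1 and 103 UMIs (log2 ratio -4.71, -10.03 to -2.20). Nts, encoding neurotensin, was read in 8 low and 45 high cells, at 62.6 and 439.1 CPM. Without the 5 cells the log2 ratios were -1.95 for Fgl2, -1.86 for Mrc1, -1.27 for Stab1, -4.01 for Lcn2, -3.98 for Gpr182 and -2.08 for Nts, so each was still 2-fold or more lower in low cells.

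Among genes of valves and collecting vessels 1 of 14 that passed was called higher and 2 lower in low cells, and without the 5 cells 0 of 13 in either direction. Foxp2 stood at 189.8 CPM in low and 161.0 CPM in high cells of Sod1KO GFP- (log2 ratio 0.24, -0.12 to 0.58), Gja1, a connexin of lymphatic valves, at 398.3 and 394.6 CPM (0.01, -0.22 to 0.24), and Cldn11 at 89.7 and 98.5 CPM (-0.14, -0.65 to 0.35). Itga9 (-0.73, -0.97 to -0.49) and Nfatc1 (-0.44, -0.69 to -0.19) were lower in low cells but under the 2-fold limit, and without the 5 cells both intervals included 0, at -0.09 (-0.34 to 0.15) and -0.06 (-0.34 to 0.22). Foxp2 was then 0.73 (0.35 to 1.09), Gja1 0.07 (-0.22 to 0.35) and Cldn11 0.53 (0.00 to 1.02). In WT GFP-, where low cells held 50642 UMIs in all, the log2 ratios were -2.75 for Mmrn1, -1.41 for Flt4, -1.30 for Prox1, -0.29 for Reln and -2.52 for Fgl2.

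**Figure D4:**
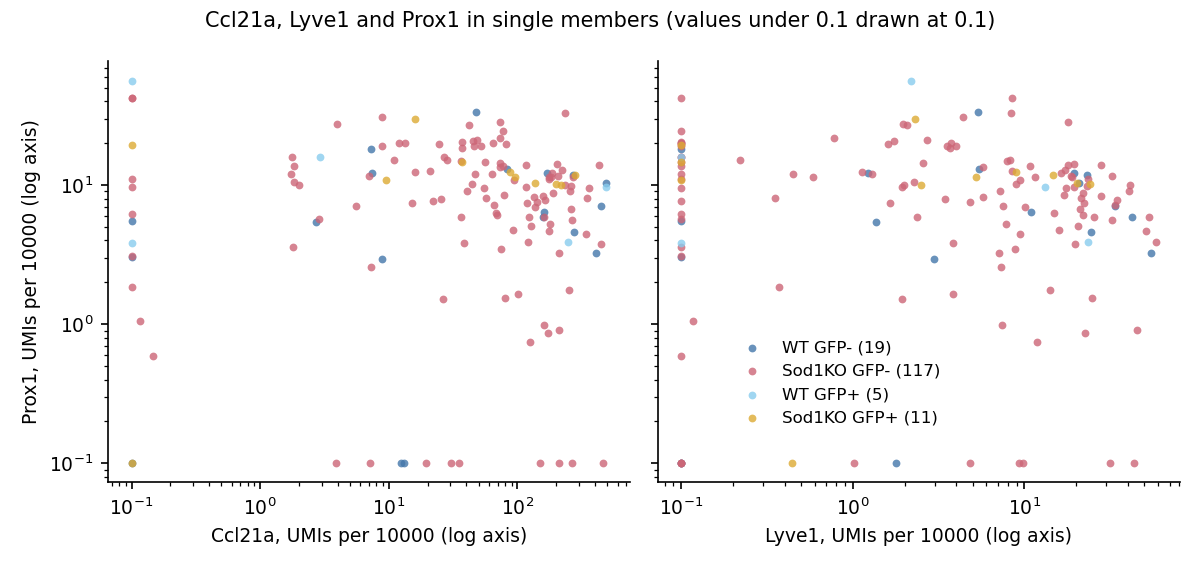
Each point is a strong member (152), with Prox1 UMIs per 10000 on the y axis against Ccl21a (left) and Lyve1 (right) UMIs per 10000 on the x axes (all log scales, values under 0.1 drawn at 0.1), coloured by library. Ccl21a and Lyve1 spread over several orders of magnitude, while most cells hold between 1 and 50 Prox1 UMIs per 10000 or none.

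The genotypes were compared within members of the GFP- sort. Sod1KO over WT was called higher for 442 of 6429 genes (6.88%) and lower for 63 (0.980%), with a median log2 ratio of 0.05. Among strong members 437 of 5555 genes (7.87%) were called higher and 65 (1.17%) lower, and 254 and 40 genes were called in both sets. Among the 5813 genes with 10 or more WT UMIs, 135 were called higher and 63 lower, so higher calls were still the more numerous. A gene that passed with under 10 WT UMIs is higher in Sod1KO by the filter itself. This limit can therefore remove higher calls only, and it does not test where their excess came from. The WT members numbered 23 and held 441000 UMIs, against 147 members and 3355703 UMIs in Sod1KO, so a WT level could rest on few cells.

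Markers of other cells moved with the genotype. The fibroblast list summed to 77.5 CPM in strong members of WT GFP- and 1569.1 CPM in those of Sod1KO GFP- (9 genes, 7 and 9 detected), the tenocyte list (6 genes, 4 and 6 detected) to 33.2 and 313.0 CPM and the mural list to 1367.2 and 2025.7 CPM. Of the fibroblast genes that passed, 4 of 6 were called higher in all members and 6 of 6 in strong members, as were 5 of 5 tenocyte genes in all members. The 5 low cells described above carried 57.0% of these fibroblast and 84.1% of these tenocyte UMIs of Sod1KO strong members. Of the blood endothelial list 3 of 14 passing genes were called higher in all members and 6 of 12 in strong members, among them Mecom (log2 ratio in strong members 4.36, 2.49 to 7.41), Cd34 (2.87, 1.30 to 5.17) and Flt1 (2.38, 1.69 to 3.17). Lipid-handling genes were called higher for 2 of 12 and 3 of 11. In blood endothelial cells of the same libraries the fibroblast list summed to 1293.1 and 4277.9 CPM. The part of these RNAs in the genotype values below was not tested.

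Of 22 lymphatic genes outside the rule 0 were called in either direction between the genotypes, in all GFP- members and in strong ones, with median log2 ratios of -0.31 and -0.22. Among the rule genes 1 of 6 was called lower, Ccl21a, with a log2 ratio of -1.08 (-1.12 to -1.04) in all GFP- members and of -0.87 (-0.91 to -0.83) in strong members, and -0.55 (-0.65 to -0.45) in GFP+ members. Lyve1 had -0.97 (-1.09 to -0.84), Mmrn1 -0.50 (-0.62 to -0.39), Prox1 -0.40 (-0.55 to -0.25), Reln -0.40 (-0.51 to -0.28) and Flt4 -0.31 (-0.52 to -0.11). In GFP+ members Mmrn1 had 0.71 (0.31 to 1.14) and Flt4 0.70 (0.12 to 1.33), the opposite sign, and the intervals of Lyve1, Prox1 and Reln included 0. Weak members held 62.5% of the GFP+ members' UMIs in WT and 48.2% in Sod1KO. In strong GFP+ members Mmrn1 had 0.25 (-0.15 to 0.67) and Flt4 0.27 (-0.33 to 0.93), both including 0, and Reln -0.60 (-0.95 to -0.23), the sign of the GFP- sort.

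These sums did not describe the typical cell. In single strong members the medians ran the other way for Ccl21a, at 4777.6 CPM in WT GFP- and 6779.7 CPM in Sod1KO GFP-, for Lyve1 (537.0 and 721.7 CPM), for Mmrn1 (962.9 and 1436.6 CPM), for Prox1 (594.6 and 911.6 CPM) and for Flt4 (431.0 and 561.6 CPM). The cell with most Ccl21a held 21.0% of the strong members' Ccl21a UMIs in WT GFP- and 5.43% in Sod1KO GFP-, and the cell with most Prox1 41.5% and 4.07%. For these 5 genes the direction of the genotype difference therefore depended on whether UMIs or cells were weighed.

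Nr2f2 and Hes1 were lower in Sod1KO GFP- members on both measures. Nr2f2 stood at 1015.7 CPM in strong members of WT GFP- and 535.6 CPM in Sod1KO GFP-, with cell medians of 768.9 and 537.8 CPM, and its log2 ratio in all members was -0.93 (-1.09 to -0.77), against 0.00 (-0.51 to 0.55) in GFP+ members and 0.06 (-0.12 to 0.24) in blood endothelial cells. Hes1, a target of Notch signalling, stood at 1181.7 and 461.2 CPM with cell medians of 800.9 and 463.6 CPM. Its log2 ratio was -1.29 (-1.44 to -1.13) in GFP- members, -0.24 in GFP+ members and -0.66 in blood endothelial cells. In strong GFP+ members it stood at 195.2 CPM for WT (9 UMIs) and 299.3 CPM for Sod1KO (73 UMIs). Of the 9 Notch genes 5 passed, and Hes1 was the 1 called lower. The cell ranges of both genes overlapped between the libraries, from 122.9 to 1926.8 CPM in WT and from 0 to 1865.7 CPM in Sod1KO for Nr2f2, and from 0 to 3329.8 and from 0 to 2409.6 CPM for Hes1.

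Other genes named as lowest in Sod1KO were Rfxap, Pgf, Mettl23, Trim37, Dhrs7, Hmgn5, Cep95 and Grk6. Pgf, placental growth factor and a ligand of VEGFR1, had 48 and 144 UMIs and a log2 ratio of -1.34 (-1.82 to -0.84), beside -0.01 in GFP+ members and -1.03 in blood endothelial cells. Rfxap, a subunit of the RFX complex of MHC class II promoters, had 27 and 69 UMIs and -1.57 (-2.24 to -0.88), beside -2.05 and -0.05. The cytokine Il7, from the trafficking list, had 54 and 191 UMIs and a log2 ratio of -1.11 (-1.55 to -0.64), and in strong members -0.89 (-1.33 to -0.43), under the 2-fold limit.

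The genes named as highest in Sod1KO were Ppm1n, Efna2, Apba1, Sema4a, Adamts4, Cx3cr1, Mcmdc2, Mxra8, Specc1 and Rbp7, and each rested on 8 or fewer WT UMIs. Cx3cr1, the fractalkine receptor, had 4 UMIs in WT GFP- members and 260 in Sod1KO GFP-, a log2 ratio of 3.09 (1.72 to 4.98), beside 0.32 in GFP+ members and 1.70 in blood endothelial cells. Among strong members it was read in 3 of 19 and 65 of 117 cells. Adamts4, an aggrecan-cleaving protease, had 7 and 455 UMIs (3.09, 2.04 to 4.42), and was read in 1 of 19 and 48 of 117 strong members. Its log2 ratio was 1.87 (0.58 to 3.54) in GFP+ members and -2.08 (-4.30 to 0.25) in strong GFP+ members. In blood endothelial cells it was 0.83 (0.51 to 1.16). Sema4a had 0 and 243 UMIs, a log2 ratio of at least 3.41 at the floor of 3 UMIs, with 0 of 19 and 40 of 117 strong members. Beside this stood -0.24 (-1.93 to 1.84) in GFP+ members and 2.25 (1.70 to 2.85) in blood endothelial cells. Ppm1n had 1 and 118 UMIs (3.95, 1.45 to 9.27) and Efna2, encoding the membrane ligand ephrin A2, 1 and 105 UMIs (3.79, 1.28 to 9.10). Their log2 ratios in GFP+ members were -1.94 (-4.36 to 0.49) and 0.65 (-2.40 to 6.17). In blood endothelial cells they were 2.79 (1.89 to 3.86) and 1.28 (0.70 to 1.90). Blood endothelial cells were thus higher in Sod1KO for Cx3cr1, Adamts4, Sema4a, Ppm1n and Efna2 too. Specc1, with 2 and 111 UMIs in all members (2.87), had 0 and 38 in strong members, and -0.30 without members that carried 2 or more macrophage, mural or Schwann markers.

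Rbp7, a retinol binding protein, went opposite ways in the sorts, with 8 and 432 UMIs in GFP- members (log2 ratio 2.83, 1.84 to 4.05) and 26 and 8 UMIs in GFP+ members (-3.64, -4.99 to -2.45). In strong members alone it had 8 and 164 UMIs in the GFP- sort (1.65, 0.63 to 2.88). Strong members of the GFP+ sort had 1 and 5 UMIs (-0.08, -3.24 to 5.48), an interval that included 0. Blood endothelial cells of the GFP- sort had a log2 ratio of 0.41.

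Of the pathway lists, 3 of 11 trafficking genes were called higher and 1 lower in Sod1KO, 2 of 14 antioxidant genes and 2 of 4 cell cycle genes were called higher, and 1 of 16 immediate early and heat shock genes was called in each direction. In strong members the same lists had 1 of 9 trafficking genes higher and 0 lower, 2 of 13 antioxidant and 1 of 2 cell cycle genes higher, and 1 higher and 2 lower of 16 immediate early and heat shock genes. The metallothionein Mt1 had a log2 ratio of 1.11 (0.72 to 1.52) in GFP- members, 1.96 (1.44 to 2.52) in GFP+ members and 1.20 (1.04 to 1.36) in blood endothelial cells, so blood endothelial cells carried the difference too. In strong GFP- members it was 0.49 (0.07 to 0.94). Nfatc1 was 0.69 (0.38 to 1.02) and Gja1 0.73 (0.41 to 1.05) in GFP- members, both under the 2-fold limit, beside 0.15 (-0.51 to 0.88) and -0.59 (-1.07 to -0.10) in GFP+ members, where Gja1 had the opposite sign. In strong GFP+ members both intervals included 0, at -0.46 (-1.21 to 0.35) for Nfatc1 and 0.12 (-0.63 to 0.96) for Gja1. In the GFP- sort the cell medians in strong members were 197.6 and 302.8 CPM for Nfatc1 and 197.1 and 319.6 CPM for Gja1. Top2a, a proliferation gene, had 2 and 123 UMIs in GFP- members (log2 ratio 3.01, 1.13 to 6.08) and 0 and 37 in GFP+ members. Among strong members of Sod1KO GFP- it was read in 1 of 29 low and 7 of 88 high cells, so its level rests on few cells. In blood endothelial cells of the GFP- sort its log2 ratio was -0.32 (-0.63 to 0.01).

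**Figure D5:**
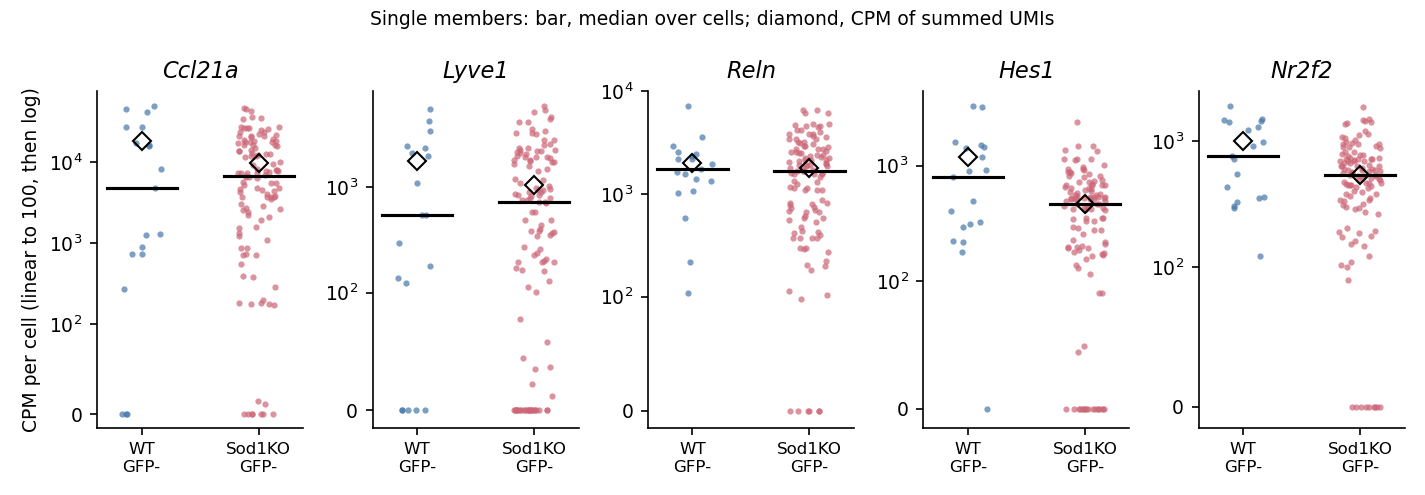
CPM of 5 genes in single strong members of the WT GFP- (19 cells) and Sod1KO GFP- (117 cells) libraries (y axis linear to 100, then log). Bars are medians over cells and diamonds CPM of summed UMIs, which lie far above the bar for Ccl21a and Lyve1 in WT GFP- and near it for Reln, and both marks are lower in Sod1KO for Hes1 and Nr2f2.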

How the data were processed

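The 4 libraries, 1 per genotype and sort, came from droplet-based 3′ sequencing of single-cell RNA. The authors deposited UMI counts per gene and barcode for 32285 genes, made with Cell Ranger 7.1.0 per the file headers and labels (the study's methods name another version) on mm10 per the labels (the methods name GRCm38 and GRCm39), and with 0 features for GFP. The authors' later removal of ambient RNA and doublets and their batch integration are not in these files. Barcodes kept in the GFP- sort were 1665 of 2052 (WT) and 5430 of 6598 (Sod1KO), and in the GFP+ sort 4767 of 5498 (WT) and 6291 of 7267 (Sod1KO), at more than 200 genes and under 10% of UMIs from 13 mitochondrial genes. UMIs were summed per class and library and given as CPM. In a ratio, 0 was replaced by the floor, 3 UMIs, and no ratio was given with both counts at or under it. A gene passed with 10 UMIs expected in each library's members at the pooled rate, and was called at 2-fold. Intervals are exact 95% ones (Clopper-Pearson, Poisson, conditional binomial) or, for differences of shares, Newcombe intervals. Doublets were scored from 50 neighbours on 30 components of 2000 variable genes at 0.8% per 1000 barcodes and were kept except in an alternative. Named genes were the 15 highest and 10 lowest against blood endothelial cells by the smaller ratio of the GFP- libraries, and the 10 highest and lowest by genotype with UMIs in at least 25% of members of the higher library and no cell above 25% of them. Mitochondrial, ribosomal and predicted genes and markers of other lineages were left out. Any gene of the lists could be named. Of the genes named by genotype, 1 is not reported here. Members, lists and named-gene rules were chosen with earlier results of these data known. No statistical test was run, since each group has 1 library. The work used Python 3.11.15 with scikit-learn 1.9.0, pandas 2.3.3, matplotlib 3.10.9, scipy 1.17.1 and numpy 2.4.6, and the ratio step was tested on simulated data.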

Additional observations from a re-analysis of the deposited data

Results flagged for a closer look

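Rbp7 had a log2 ratio of Sod1KO over WT of -3.64 (-4.99 to -2.45) in GFP+ members and of 2.83 (1.84 to 4.05) in GFP- members, opposite in sign. In strong GFP+ members it was -0.08 (-3.24 to 5.48), from 1 and 5 UMIs, so the reversal was not read in strong members. The difference between the sorts was not tested. Cells with at least 3 of the 6 lymphatic genes but no UMI of Pecam1, Cdh5 or Egfl7 lay outside the rule. In the GFP- sort they numbered 12 for Sod1KO and 0 for WT, and in the GFP+ sort 2 for each genotype. The 12 cells of Sod1KO GFP- had a median of 64.1 UMIs of Mmrn1, Prox1, Lyve1, Flt4 and Reln per 10000 (2.34 to 154.6), 11 of them at 5 or more, beside a median of 63.1 in strong members. Their median depth was 2362.5 UMIs, against 16791 in the strong members of that library. The cells of the GFP+ libraries had medians of 4.35 and 3.06 per 10000.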

How the results depend on the processing

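No paired analysis was possible because each group has 1 library, and no library could be left out for the same reason. The differences in share kept their direction in all 18 alternatives run (4 or 5 for each sort and denominator). Against blood endothelial cells, genes called lower numbered 384 with all members, 590 with members of at least 4 lymphatic genes and 585 with strong members, a set added after seeing the data. With no filter on low counts, genes called higher were 1574 in place of 394. For the genotype, the same change gave 1493 higher in place of 442 and 2210 lower in place of 63, and a mean of per-cell CPM gave 207 lower. Specc1 was reversed, at -0.30 without members carrying 2 or more macrophage, mural or Schwann markers. Of the 180 log2 ratios of named genes by genotype under the alternatives, 14 moved beyond their counting interval without a change of sign, and 1, that of Specc1, was reversed. Against blood endothelial cells 27 of 150 moved beyond the spread between the GFP- libraries, with no change of sign. Without 5 low cells, a comparison chosen after seeing the data, the log2 ratio of low over high cells changed sign for Prox1 (0.06), Reln (0.05) and Cldn11 (0.53), and 8 of 15 moved beyond their counting interval. The 5 cells were taken out by a low sum of rule genes that include Prox1 and Reln, which favoured a rise of Prox1 and Reln. The cause of these shifts was not tested. Depth limits the genotype values: 3 UMIs were 6.80 CPM in WT GFP- members and 24.4 CPM in WT GFP+ members, against 0.894 CPM in Sod1KO GFP-.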

Other observations

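Ccl21a has near-identical copies on chromosome 4, between which reads can be split, so its counts are uncertain in that respect. Of the copies listed, Ccl21b and Ccl21c had 0 UMIs in all 4 libraries. Gm21541, which RefSeq names Ccl21d (chr4:41903613-41904743 on GRCm38.p6), took a different share of the UMIs of the pair in the libraries. It had 47 of 6518 Gm21541 and Ccl21a UMIs in WT GFP- members (0.721%, 0.530 to 0.958%) and 24 of 23248 in Sod1KO GFP- (0.103%, 0.0662 to 0.154%). In WT GFP- these UMIs came from 10 members, and the highest cell held 19 of them. In the GFP+ libraries the share was 1 of 1129 in WT (0.0886%, 0.00224 to 0.493%) and 4 of 2958 in Sod1KO (0.135%, 0.0369 to 0.346%). The difference between the pools rests on 1 library each and was not tested. Selenop, a selenium transport protein outside the lists and chosen after its values were seen, had cell medians of 1166.6 CPM in strong members of WT GFP- and 582.5 CPM in Sod1KO GFP-, with UMIs in 15 of 19 and 100 of 117 cells. In the GFP+ sort the medians ran the other way, at 0 CPM for WT and 647.6 CPM for Sod1KO. Selenop was read there in 2 of 5 and 9 of 11 strong members.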
